A study of Mus musculus with 6 samples.

Results

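The 29 genes described here encode enzymes of cholesterol and fatty acid synthesis together with the proteins that regulate this synthesis and move sterols. They were taken as a list of symbols, by a rule that uses no measured value, from the 52636 genes counted in cells of the mouse choroid and retinal pigment epithelium (RPE). The list was nevertheless chosen with earlier results of these data known. All 29 were matched to the Ensembl identifiers of the count tables and together held 699567 UMIs, a UMI being 1 captured RNA molecule. The cells were isolated from male C57BL/6J mice aged 12 to 16 months, in 3 Dram2 wt/wt samples (Dram2 WT in the labels) and 3 Dram2 ko/ko samples, the latter with a constitutive CRISPR deletion of Dram2 exon 4. In both genotypes the choroid with its RPE was dissected, dissociated and kept in culture before single-cell RNA sequencing, and 25428 cells were deposited with the authors' names for 8 cell types and 9 fibroblast sub-clusters. Dram2 ko/ko replicate 3 was the only sample of batch 2, so that batch and genotype could be separated only partly. The labels do not say that replicates were separate animals, and p-values then measure the spread between these samples, which may be technical.

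DRAM2 is a membrane protein of lysosomes linked to autophagy and to inherited retinal dystrophy. Cholesterol is built from acetyl-CoA through mevalonate, isoprenoids, squalene and a series of sterol intermediates, and cells short of sterol release the transcription factor SREBP2 from the membrane by way of its escort SCAP, which raises the transcription of most of these enzymes together. SREBP1 acts in the same way with a preference for fatty acid synthesis, INSIG1 retains both factors in the endoplasmic reticulum, and sterol in excess leaves the cell through the transporters ABCA1 and ABCG1 under the control of liver X receptors. In the eye the RPE also takes up lipid from shed photoreceptor tips and from the blood of the choroid and returns part of it by export.

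The members fall into 6 mevalonate steps, 11 squalene and sterol steps, 4 regulators, 4 fatty acid steps, and a group of 4 with the thiolase Acat2, the sterol transfer protein Stard4 and both exporters. The promoters of 22 of the 29 could be read from RefSeq on GRCm38.p6, from 250 bases before to 50 bases after the transcription start. The CCAAT box, which NF-Y binds beside SREBP at sterol genes, was searched as CCAAT on both strands and was present in 19 of the 22 (86.4%), against 41.1% of 27025 genes. The 3 promoters without it were those of Scap, Acat2 and Abca1. The GC box GGGCGG was present in 20 of 22 (90.9%, against 38.2% of all genes) and the E-box CACGTG in 6 (27.3%, against 8.1%). The sterol regulatory element core CACNCCAC was present in 3 (13.6%, against 7.1%), those of Hmgcs1, Insig1 and Acat2, and only that of Hmgcs1 held the longer core TCACNCCAC (4.5%, against 1.4%). Some genes, such as Dhcr7, Srebf1 and Scap, had several annotated starts, and a gene counted if any of its windows matched. The 27025 genes were not matched to the members by expression or type of promoter. A match is a description of the letters and not of a bound site.

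The promoters of 1 mevalonate, 1 sterol and 1 fatty acid enzyme and of 1 exporter are printed from 150 bases before to 50 bases after the start, 5′ to 3′ on the gene's strand, because the levels of Hmgcs1, Msmo1 and Abca1 differed in unlike ways between the cells described next and Fasn stands for the fatty acid branch. Capitals mark CCAAT boxes on either strand and the sterol regulatory element core. The windows are chr13:119690201-119690400 on the plus strand for Hmgcs1, chr8:64733529-64733728 on the minus strand for Msmo1, chr11:120824498-120824697 on the minus strand for Fasn and chr4:53159846-53160045 on the minus strand for Abca1.
Hmgcs1: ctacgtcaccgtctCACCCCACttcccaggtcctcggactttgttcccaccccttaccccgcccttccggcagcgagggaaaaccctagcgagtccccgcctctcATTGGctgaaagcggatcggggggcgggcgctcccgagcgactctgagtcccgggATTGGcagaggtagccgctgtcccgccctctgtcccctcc
Msmo1: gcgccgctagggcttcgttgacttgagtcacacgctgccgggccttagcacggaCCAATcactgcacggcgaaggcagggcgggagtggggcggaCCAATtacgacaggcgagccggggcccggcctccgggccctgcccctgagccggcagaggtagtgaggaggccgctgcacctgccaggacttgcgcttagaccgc
Fasn: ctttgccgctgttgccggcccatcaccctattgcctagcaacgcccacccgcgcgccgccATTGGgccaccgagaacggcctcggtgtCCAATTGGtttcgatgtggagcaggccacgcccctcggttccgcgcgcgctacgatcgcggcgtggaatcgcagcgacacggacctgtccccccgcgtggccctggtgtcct
Abca1: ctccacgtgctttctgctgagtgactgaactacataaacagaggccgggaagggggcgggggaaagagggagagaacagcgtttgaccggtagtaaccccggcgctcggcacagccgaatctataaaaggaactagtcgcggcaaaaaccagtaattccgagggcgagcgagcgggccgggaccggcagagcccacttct
The windows of the 3 enzymes hold CCAAT boxes and that of the exporter holds none.

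The samples held 2140 to 6648 cells and 96808998 to 122746184 UMIs each, with median UMIs per cell from 16453 in Dram2 ko/ko replicate 2 to 47373 in Dram2 ko/ko replicate 1. Levels are given as CPM (counts per 1000000), the UMIs of a gene per 1000000 UMIs of all cells of a type summed within a sample, as mean ± SD over samples. The names of most cell types matched their markers, with Pecam1 at 653 CPM in Endothelial cells and Lyz2 at 10630 CPM in Myeloid cells. The Myeloid cells also held fibroblast genes near the Fibroblast level, with Dcn at 457.6 CPM (579.7 CPM in Fibroblast cells) and Pdgfra at 34.2 CPM (53.6 CPM), and the part of fibroblast RNA in their values was not tested. RPE cells held the markers Otx2 (87.4 CPM) and Krt18 (710 CPM) while other RPE markers were low in them, Rlbp1 at 6.59 CPM, the visual cycle enzyme Rpe65 at 0.693 CPM, Tyrp1 at 0.505 CPM and Best1 at 0.196 CPM, the last under its Fibroblast mean of 0.760 CPM. The cells named Pericyte held the Schwann cell markers Sox10 (179 CPM) and Ngfr (407 CPM), which averaged at most 3.11 CPM in any other type, while of the pericyte markers Kcnj8 was at 0, Rgs5 averaged 7.79 CPM and Cspg4 averaged 199 CPM, its highest mean of any type. They are called Pericyte-named cells here. Dram2 itself, counted mostly at its 3′ end and not at the deleted exon, had 33.4, 39.6 and 38.1 CPM in the wt/wt samples and 30.7, 28.3 and 30.1 CPM in the ko/ko samples over all cells. Its log2 fold change was -0.30 (SE 0.0871, voom-limma adjusted p = 0.301), and it does not check the labels, since the deletion lies outside the part that is counted.

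Cholesterol synthesis transcripts differed several-fold between cell types. The summed level of the 17 mevalonate and sterol steps averaged 978 ± 263 CPM in Pericyte-named cells, 631 ± 109 CPM in RPE and 550 ± 39.2 CPM in Fibroblast proliferating cells (n = 6 samples each). It averaged 523 ± 78.5 CPM in Myeloid cells (n = 4, the samples with at least 10 such cells) and 511 ± 29.8 CPM in Fibroblast cells, the largest type with 12651 cells. It was lower in Endothelial cells (407 ± 66.0 CPM), Fibroblast 2 cells (357 ± 19.7 CPM) and Fibroblast-like cells (235 ± 30.5 CPM). The 6 Pericyte-named samples lay between 780 and 1480 CPM, the highest resting on 17 cells. They met the RPE range, 463 to 780.5 CPM, only at its upper end. RPE, Fibroblast proliferating, Myeloid and Fibroblast samples overlapped, whereas every Fibroblast 2 sample (338 to 393 CPM) lay below every Fibroblast sample (483 to 568 CPM), and every Fibroblast-like sample lay below every Fibroblast 2 sample. These gaps are for plain CPM. With TMM factors, the scaling used in the genotype tests, the Fibroblast 2 and Fibroblast-like means were closer, 343.7 CPM and 323.9 CPM. The Pericyte-named mean was then 860.4 CPM. Because the types were defined by clustering the same cells, the differences between types are descriptions and were not tested. The Fibroblast-like cells had low median UMIs, 4305.5 to 5219 per cell and sample. Of these 1121 cells 168 made up sub-cluster 8, with 90.26% to 91.71% mitochondrial UMIs (sample medians), and 168 belonged to sub-cluster 6. The part of depth and of RNA quality in the low levels of this type was not tested.

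**Figure D1:**
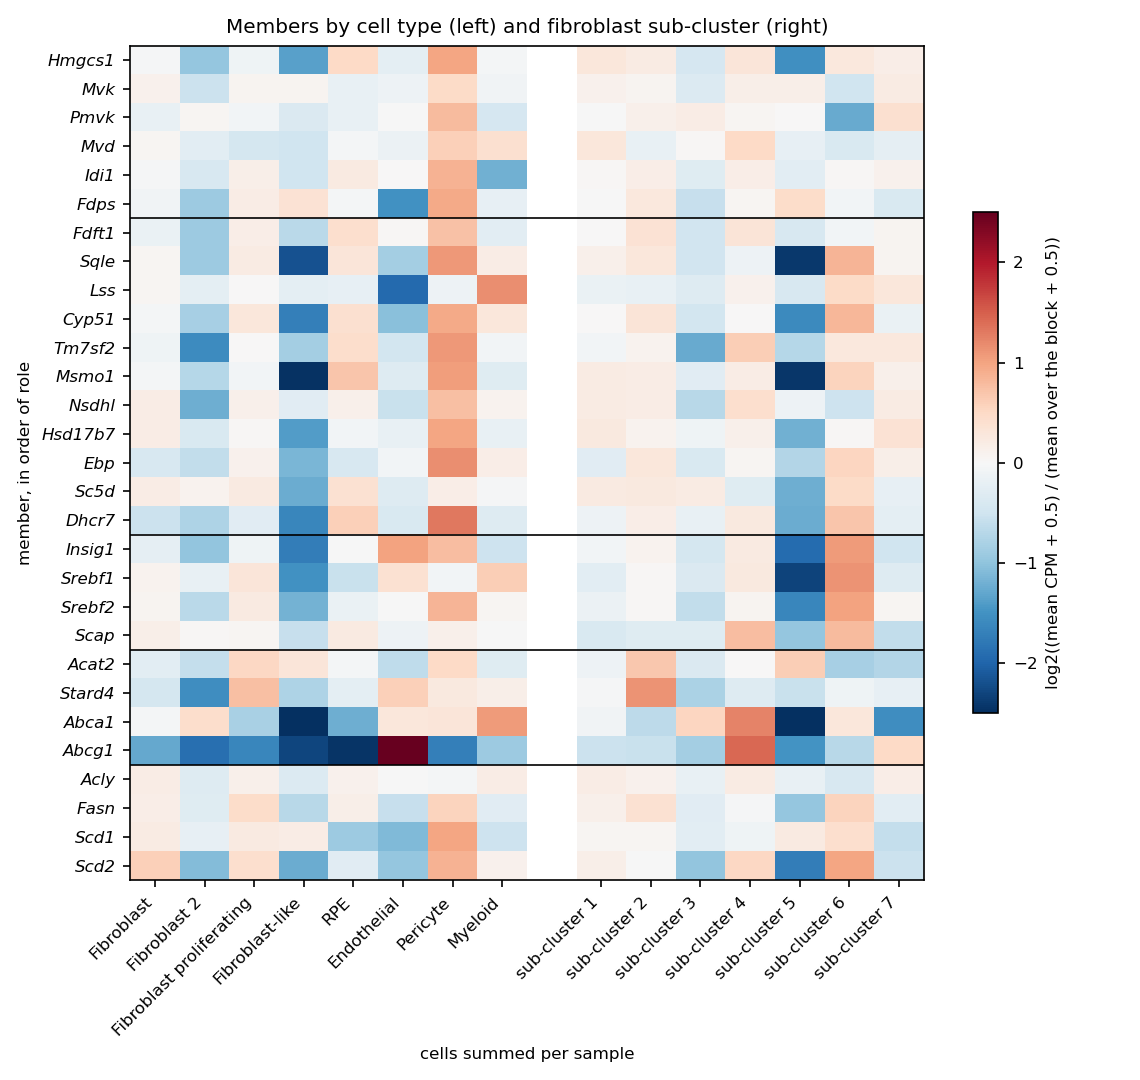
Level of each of the 29 members (vertical axis, in order of role) in each cell type (left) and fibroblast sub-cluster (right), as the log2 of the mean CPM plus a pseudocount of 0.5 minus the log2 of the member's mean over the columns of that side plus the same pseudocount. Colours clip at the ends of the bar. Most mevalonate and sterol steps are highest in the Pericyte column, Abcg1 stands out in the Endothelial column, and the Fibroblast-like and sub-cluster 5 columns are low for most members.

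**Figure D2:**
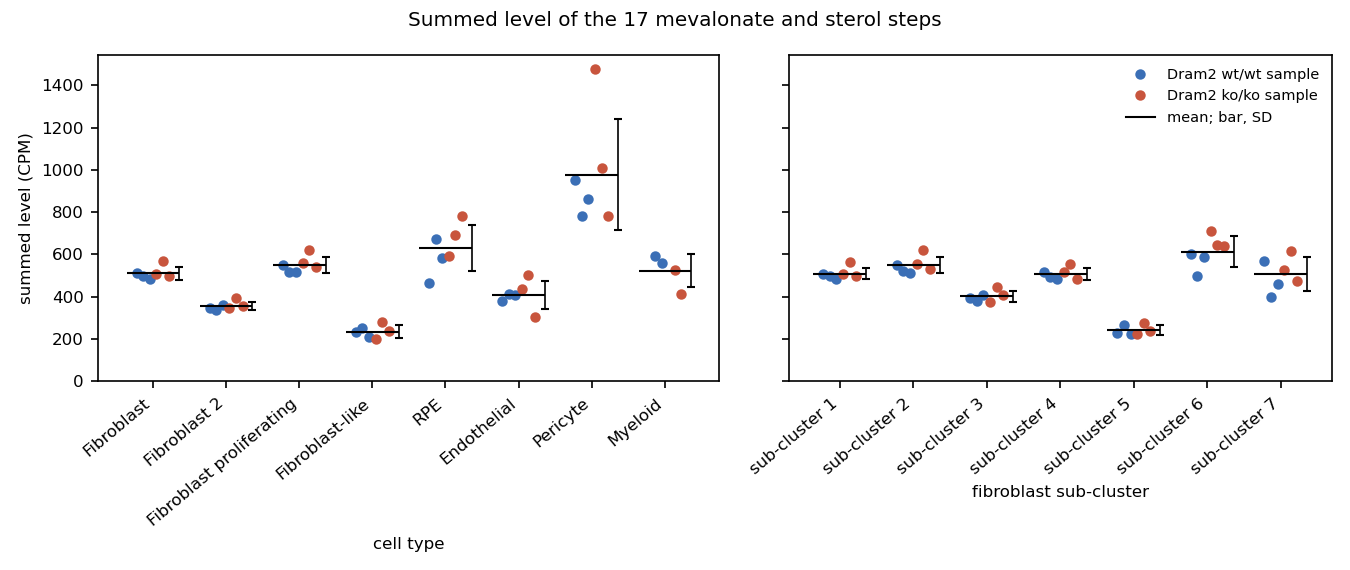
Summed CPM of the 17 mevalonate and sterol steps (vertical axis, starting at 0) by cell type and by fibroblast sub-cluster. Each point is a sample, coloured by genotype, and lines with bars mark the mean and SD over samples. Pericyte-named cells average 978 CPM and Fibroblast-like cells 235 CPM.

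Of the 29 members, 19 had their highest mean in the Pericyte-named cells, among them all 6 mevalonate steps and 9 of the 11 squalene and sterol steps. The enzymes Ebp, Hsd17b7 and Scd1 were higher in every Pericyte-named sample than in every sample of any other type. The share of all genes with their highest mean, or with such a gap, in these cells was not counted. Ebp, the sterol isomerase of the late pathway, had 130, 106, 167, 166, 134 and 147 CPM in the 3 wt/wt and then the 3 ko/ko samples of these cells, against 42.5 to 55.4 CPM in Fibroblast samples. Hsd17b7, the 3-ketosteroid reductase of sterol demethylation, averaged 50.2 ± 8.65 CPM there and 28.9 ± 1.19 CPM in Fibroblast cells. Scd1, a stearoyl-CoA desaturase, averaged 100.2 ± 11.3 CPM there and 57.9 ± 8.70 CPM in Fibroblast cells. Msmo1, the sterol C4-methyl oxidase, had 152, 147 and 151 CPM in the wt/wt samples and 402, 191 and 107 CPM in the ko/ko samples of these cells, so that 1 ko/ko sample lay far above the other 5 and the ko/ko samples lay on both sides of the wt/wt samples. Among the 24 members with a mean of at least 5 CPM in both types, 14 (58.33%) were higher than in Fibroblast cells in every sample, and 25.59% of 9677 genes with such means were. These 308 cells were spread unevenly, from 17 in Dram2 ko/ko replicate 1, the sample with 402 CPM of Msmo1, to 124 in Dram2 ko/ko replicate 2. They also held the proliferation gene Mki67 at 130 CPM. The part of cell number or of the cell cycle in these levels was not tested.

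RPE cells differed from Fibroblast cells in single steps more than as a group. Msmo1 was higher in the RPE in 6 of 6 samples (150 ± 36.5 CPM against 89.2 ± 9.04 CPM), and so was Cyp51, the lanosterol demethylase (86.9 ± 18.2 CPM against 63.5 ± 6.11 CPM). Dhcr7, the final reductase of the pathway, averaged 14.7 ± 3.62 CPM in the RPE, where no sample was under 9.29 CPM, and had 5.26 to 7.56 CPM in Fibroblast samples, without overlap. Abca1 and Scd1 went the other way. Abca1 was lower in the RPE in 6 of 6 samples (10.9 ± 3.95 CPM against 25.4 ± 5.11 CPM), and Scd1 averaged 26.4 ± 7.87 CPM there, under the Fibroblast value. Of the 24 members at 5 CPM or more in both types, 5 were higher and 5 lower in every sample (20.83% each way), near the 23.45% and 24.88% of all genes.

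Endothelial cells carried 1 member far above all other types. Abcg1 (chr17:31057675-31117988 on GRCm38), which exports sterol to lipoprotein particles, had 74.5, 63.9 and 64.1 CPM in the wt/wt samples and 55.2, 57.9 and 94.7 CPM in the ko/ko samples of these 288 cells. The next highest type was Myeloid at 5.85 ± 4.44 CPM, 11.7-fold lower, and no sample of any other type reached the Endothelial range. The synthesis steps did not follow it, since 9 of 23 members at 5 CPM or more in both types (39.13%) were lower than in Fibroblast cells in every sample, against 21.43% of all genes. Scd2, the other desaturase, averaged 76.0 ± 19.4 CPM in Endothelial and 225 ± 39.9 CPM in Fibroblast cells. Insig1 had its highest mean here too, at 9.67 ± 4.78 CPM, a low level whose spread met other types.

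**Figure D3:**
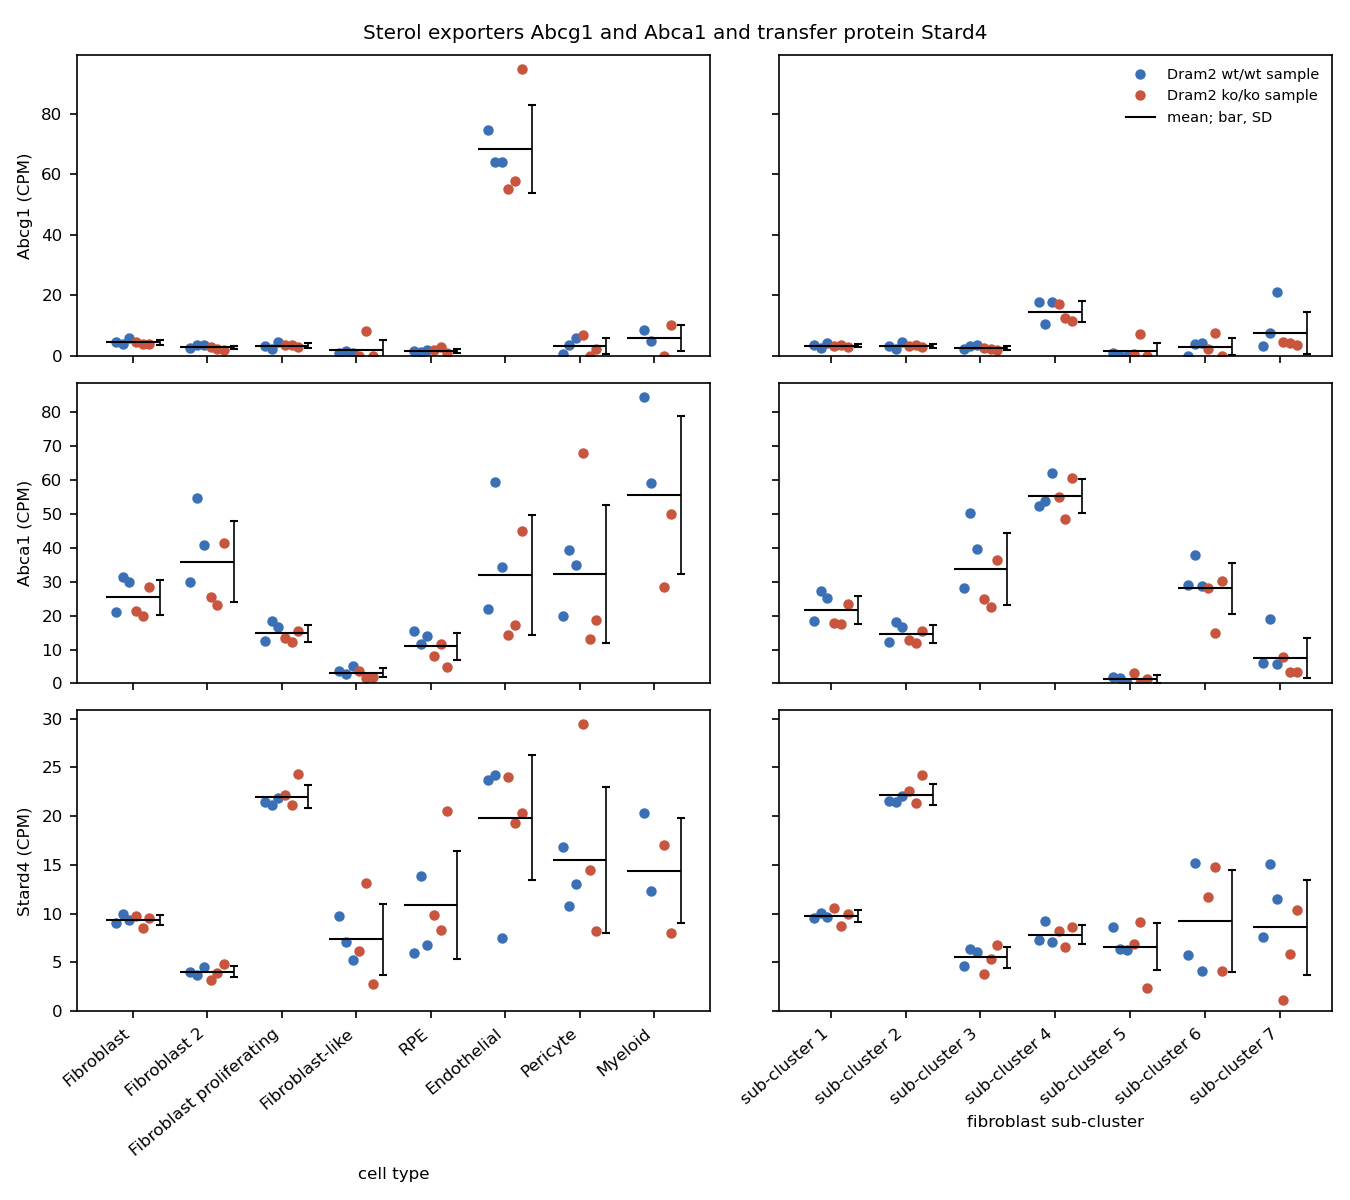
CPM of the exporters Abcg1 and Abca1 and of the sterol transfer protein Stard4 (rows, vertical axes in CPM from 0) by cell type (left) and fibroblast sub-cluster (right), 1 point per sample, coloured by genotype, with lines and bars for the mean and SD. Abcg1 is high in Endothelial cells and raised in sub-cluster 4, Abca1 is highest among sub-clusters in sub-cluster 4, and Stard4 is higher in Fibroblast proliferating than in Fibroblast cells.

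Fibroblast 2 cells showed lower levels of almost the whole set. They held more of the matrix gene Dcn than Fibroblast cells (2536 CPM against 579.7 CPM). They held less of Mgp (668 CPM against 2931 CPM) and Col1a1 (187 CPM against 673.5 CPM). Of the pericyte markers Kcnj8 had its highest mean in them (23.7 CPM). Rgs5 (13.69 CPM against 67.05 CPM) and Cspg4 (20.69 CPM against 37.55 CPM) were lower than in Fibroblast cells, and Higd1b was near 0 in both. Within each sample 25 of the 29 members were lower in Fibroblast 2 than in Fibroblast cells, with a median ratio of 0.633. Among the members with at least 5 CPM in both types 17 of 21 (80.95%) were lower in every sample, against 32.32% of 9872 genes. Among these Scd2 was furthest below, with 56.6, 105 and 75.6 CPM in the wt/wt samples and 53.2, 44.4 and 81.8 CPM in the ko/ko samples of Fibroblast 2 cells, 0.308 of the Fibroblast mean. Nsdhl, which removes the C4 methyl groups together with Msmo1, stood at 0.367 of its Fibroblast mean, and Sqle, the squalene epoxidase that limits the rate of the late pathway, at 0.506. Hmgcs1, the cytosolic HMG-CoA synthase, had 18.5 to 22.6 CPM in Fibroblast 2 and 35.8 to 40.9 CPM in Fibroblast samples, so that these ranges did not meet. The only member higher in Fibroblast 2 in every sample was Abca1, with 29.8, 54.6 and 41.0 CPM in the wt/wt and 25.6, 23.2 and 41.4 CPM in the ko/ko samples, 1.42 times the Fibroblast mean. The other exporter did not share this, with Abcg1 at 0.621 of its Fibroblast mean.

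The desaturase genes Scd2 and Scd1 lie in the same cluster of Scd genes on chromosome 19 (chr19:44293674-44306864 and chr19:44394455-44407879 on GRCm38). Their ratio differed between cell types, and it does not depend on the library size since both are counted in the same cells. The UMI ratio of Scd2 to Scd1 was 3.88 ± 0.230 in Fibroblast and 1.62 ± 0.166 in Fibroblast 2 cells, with ranges of 3.44 to 4.10 and 1.43 to 1.91. It was 4.62 ± 0.635 in RPE cells and 1.16 ± 0.335 in Fibroblast-like cells. Among the 31-base words of the last 400 bases of Scd1, 13.9% also occur in other Scd genes, so a share of its reads may have been assigned to a paralog or dropped.

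Fibroblast proliferating cells held some members above and others below the Fibroblast level. Stard4, which carries cholesterol between membranes, had 21.4, 21.2 and 21.9 CPM in the wt/wt and 22.2, 21.1 and 24.3 CPM in the ko/ko samples, against 8.57 to 9.98 CPM in Fibroblast samples, a ratio of 2.35. Acat2, the cytosolic acetoacetyl-CoA thiolase that feeds the mevalonate pathway, averaged 46.5 ± 1.82 CPM against 26.7 ± 1.17 CPM, a ratio of 1.74, and Ebp had a ratio of 1.44. All 3 were higher in 6 of 6 samples. Abca1 stood at 0.582 and Mvd, the mevalonate diphosphate decarboxylase, at 0.702 of the Fibroblast mean, both lower in 6 of 6 samples. As a set the members did not stand apart, with 11 of 24 at 5 CPM or more in both types (45.83%) higher in every sample against 39.94% of all genes, and 6 lower (25%) against 35.14%. Acat2 shares 27.8% of its 3′ words with the neighbouring genes Acat3 and Tcp1, and its values are uncertain to that extent.

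In the Fibroblast-like cells 15 of 21 members at 5 CPM or more in both types (71.43%) were lower than in Fibroblast cells in every sample, against 51.1% of all genes. Msmo1 (0.183 of the Fibroblast mean) and Sqle (0.206) were furthest below among these. Abca1, at 3.15 CPM under that limit in Fibroblast-like cells, stood at 0.124. Acat2 was the exception, higher in 6 of 6 samples at 1.49 times the Fibroblast mean.

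Among the fibroblast sub-clusters 2 were high in regulators. Sub-cluster 1 (9965 cells, 97.61% of them Fibroblast) served as the reference. In sub-cluster 4 (1558 cells, 99.04% Fibroblast) Abca1 had 52.2, 53.7 and 62.1 CPM in the wt/wt and 55.0, 48.5 and 60.5 CPM in the ko/ko samples, against 17.6 to 27.3 CPM in sub-cluster 1, a ratio of 2.55. Abcg1 averaged 14.5 ± 3.42 CPM there against 3.36 ± 0.525 CPM, a ratio of 4.32, and Scap, the SREBP escort, 52.0 ± 4.68 CPM against 23.1 ± 3.20 CPM. These 3 genes were higher in sub-cluster 4 in every sample, without overlap with sub-cluster 1. The summed synthesis steps were level, at 508.5 ± 28.0 CPM and 509 ± 27.5 CPM, while Sc5d, the sterol desaturase, was lower in 6 of 6 samples (44.1 ± 0.832 CPM against 64.5 ± 4.62 CPM). Across the 24 members at 5 CPM or more in both sub-clusters, 8 (33.33%) were higher in every sample against 47.74% of all genes. The Scd2 to Scd1 UMI ratio was 5.48 ± 0.717 in sub-cluster 4 and 3.75 ± 0.212 in sub-cluster 1.

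Sub-cluster 6 (477 cells, 40.46% Fibroblast, 35.22% Fibroblast-like and 24.11% Fibroblast proliferating) had the highest mean of 14 members among sub-clusters 1 to 7 and 9, of which sub-cluster 9 rests on 3 samples. Srebf1, which encodes SREBP1, had 59.8, 68.4 and 72.2 CPM in the wt/wt and 63.2, 55.3 and 55.0 CPM in the ko/ko samples, against 20.7 to 26.4 CPM in sub-cluster 1. Srebf2, which encodes SREBP2, averaged 56.3 ± 11.7 CPM against 25.04 ± 3.27 CPM, and Sqle 69.4 ± 15.6 CPM against 41.8 ± 1.74 CPM. These 3 genes had every sample of sub-cluster 6 above every sample of the other sub-clusters. The share of all genes that did so, or that had their highest mean there, was not counted. Pmvk, the phosphomevalonate kinase, went the other way, with 7.37 to 23.4 CPM in sub-cluster 6 below all samples of the other sub-clusters. The summed regulators reached 180 ± 15.8 CPM against 75.2 ± 8.24 CPM in sub-cluster 1, while the 6 mevalonate steps reached 89.5 ± 15.8 CPM against 130 ± 6.71 CPM. Of the 24 members at 5 CPM or more in both sub-clusters, 8 (33.33%) were higher in every sample against 19.72% of all genes. These cells drew 17.12% to 21.54% of their UMIs (sample medians) from mitochondrial genes, and the part of RNA quality in this profile was not tested.

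Sub-cluster 5 (812 cells, 93.97% Fibroblast-like) was the low end, with 242 ± 24.2 CPM over the 17 steps and the lowest mean of 17 members. With TMM factors it was lowest for 14 members and highest for 7, against 1 by CPM. By CPM Sqle, Msmo1, Hsd17b7, Sc5d, Srebf1 and Abca1 had every sample of it below every sample of the other sub-clusters, Abca1 at 1.31 ± 1.22 CPM. The share of all genes that did so, or that had their lowest mean there, was not counted. Of the members at 5 CPM or more in both sub-clusters 13 of 22 (59.09%) were lower than sub-cluster 1 in every sample, against 46.83% of all genes, and its median UMIs per cell, 5437 to 6473.5, were low. Sub-cluster 3 (3790 cells, 78.21% Fibroblast 2) held 2964 of the 3019 Fibroblast 2 cells, so its profile is largely theirs counted again. In it 16 of 24 members were lower than in sub-cluster 1 in every sample (66.67%, against 30.11% of all genes). Abca1 was higher, at 1.55 times sub-cluster 1. Stard4 was highest in sub-cluster 2 (6179 cells, 98.69% Fibroblast proliferating), at 22.2 ± 1.11 CPM, without overlap. Sub-cluster 8 drew 90.26% to 91.71% of its UMIs from mitochondrial genes and was left out of these orders, while its cells stayed in the Fibroblast-like sums.

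The question of the study for these cells was what the loss of Dram2 changes, and over all cells no member passed the test between genotypes. The 29 members were all tested, with 0 called at an adjusted p of 0.05, against 0% of 22580 genes (0 genes called by voom-limma and by edgeR, 381 by DESeq2, none of them a member), and 1583 genes but no member were under an unadjusted p of 0.05. The log2 fold changes of ko/ko against wt/wt lay between -0.28 for Abca1 and 0.34 for Idi1, with 15 above and 14 below 0, and the lowest voom-limma adjusted p was 0.828. By role 13 of the 17 mevalonate and sterol steps lay above 0, against 51% of all genes, and all 4 regulators and all 4 fatty acid steps lay below, with medians of 0.08, -0.08 and -0.09 on the log2 scale. These signs rested partly on single samples. Without Dram2 wt/wt replicate 2 there were 2 of 4 regulators and 2 of 4 fatty acid steps above 0, and without Dram2 ko/ko replicate 2 there were 2 and 1, with 10 of the 17 steps. In Fibroblast proliferating cells 16 of the 17 steps lay above 0, against 48.4% of genes, with a median of 0.11 on the log2 scale. They numbered 14 to 16 when 1 replicate was left out and 13 with batch as a term. Dram2 ko/ko replicate 2 was the highest sample for 10 of the 17 there. The other types had smaller shares above 0, 12 of 17 tested in Fibroblast, 9 of 15 in Fibroblast 2 and 13 of 16 in RPE cells. The counts were 10 of 13 in Pericyte-named, 6 of 9 in Endothelial, 4 of 8 in Fibroblast-like and 2 of 9 in Myeloid cells. In sums over all cells, fewer cells of a type and less RNA per cell cannot be told apart. No member had its ko/ko samples all above or all below its wt/wt samples, which 4.2% and 7.33% of all genes did.

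For each single member the values of both genotypes overlapped over all cells. Hmgcs1 had 34.5, 39.8 and 34.8 CPM in the wt/wt and 35.2, 35.0 and 43.5 CPM in the ko/ko samples. Msmo1 had 88.0, 91.1 and 82.9 CPM and then 82.0, 103 and 88.8 CPM. Abca1 had 19.7, 27.3 and 26.6 CPM and then 19.3, 17.7 and 22.5 CPM, the ko/ko samples on the low side but within reach of wt/wt replicate 1. Its log2 fold change was -0.28 (SE 0.142, voom-limma adjusted p = 0.828), or -0.43 without Dram2 wt/wt replicate 1, and that of Cyp51 was 0.19 (SE 0.0978, voom-limma adjusted p = 0.846), or 0.10 without Dram2 ko/ko replicate 2. Idi1, the isopentenyl isomerase with the highest log2 fold change, averaged 0.668 ± 0.221 CPM, a low level, and shares 42.3% of its 3′ words with pseudogenes.

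The same held within the cell types, where no member was called in any. Of all genes tested, 0% were called in RPE, Endothelial and Fibroblast-like cells, 0.0118% in Pericyte-named cells and 0.0296% in Myeloid cells. Fibroblast proliferating cells had 0.624% of genes called, against 0.222% for Fibroblast 2 and 0.00503% for Fibroblast cells. In the sub-clusters 0 members were called as well, against 0.32% of genes in sub-cluster 1, 0.55% in sub-cluster 2, 0.00634% in sub-cluster 3, 0.722% in sub-cluster 4, 0% in sub-clusters 5 and 6 and 0.402% in sub-cluster 7. Members that passed the filter on low counts numbered 29 in Fibroblast and Fibroblast proliferating, 27 in Fibroblast 2 and RPE, 23 in Pericyte-named, 18 in Endothelial and Myeloid and 15 in Fibroblast-like cells, and 29, 29, 28, 28, 13, 16 and 18 in sub-clusters 1 to 7. Neither edgeR nor DESeq2 called a member in any of these. At an unadjusted p under 0.05 voom-limma found 2 members each in Fibroblast 2 and RPE (7.407% of those tested, against 6.195% and 4.646% of all genes), 2 each in Myeloid cells and sub-cluster 7 (11.11%, against 5.943% and 7.223%), and 0 in the other types.

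In Fibroblast cells no member had non-overlapping groups (4.57% of genes lay above and 7.01% below). In Fibroblast 2 cells Cyp51, Sc5d and Acat2 had every ko/ko sample above every wt/wt sample, 3 of 27 members tested against 4.81% of all genes, and Mvd had every ko/ko sample below, against 6.6%. Sc5d had 57.7, 48.2 and 50.6 CPM in the wt/wt and 63.3, 71.0 and 59.5 CPM in the ko/ko samples, a log2 fold change of 0.31 (SE 0.118, voom-limma adjusted p = 0.650). Cyp51 had 35.2, 32.8 and 30.8 CPM and then 37.6, 44.6 and 37.2 CPM, a log2 fold change of 0.27 (SE 0.121, voom-limma adjusted p = 0.798), or 0.17 without Dram2 ko/ko replicate 2. Neither passed the test, and the gap between the nearest samples of the 2 groups was narrower than the range within either group. In Fibroblast proliferating cells only Hmgcs1 lay apart, with ko/ko samples above by a log2 fold change of 0.05, or 0.02 without Dram2 wt/wt replicate 3 (4.76% of genes lay above and 6.52% below).

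RPE cells gave the widest range of log2 fold changes of the types with 6 samples, -1.10 to 0.63, with Abca1 at its low end. The highest single value among these types was 0.77, in Fibroblast proliferating cells. Hmgcs1 had 33.8, 53.0 and 46.7 CPM in the wt/wt and 60.4, 56.2 and 80.6 CPM in the ko/ko samples, a log2 fold change of 0.56 (SE 0.193, voom-limma adjusted p = 0.880). It was the only member with its ko/ko samples all above, against 2.48% of genes, and no member lay wholly below, against 5.09%. Abca1 had 15.4, 11.6 and 14.1 CPM and then 8.07, 11.6 and 4.71 CPM, a log2 fold change of -1.10 (SE 0.342, voom-limma adjusted p = 0.721). Its difference rested on Dram2 ko/ko replicate 3, the batch 2 sample, and without it the log2 fold change was -0.35. Beyond these, Dram2 wt/wt replicate 1 had the lowest RPE level of 18 of the 29 members and Dram2 ko/ko replicate 3 the highest of 17. These samples held the fewest and the most RPE cells, 56 and 575. The other samples held 539 and 152 in wt/wt and 68 and 102 in ko/ko, and the part of cell number was not tested. Over the 17 steps the RPE samples had 463, 673 and 584 CPM in wt/wt and 593, 692 and 780.5 CPM in ko/ko, so that the groups overlapped.

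**Figure D4:**
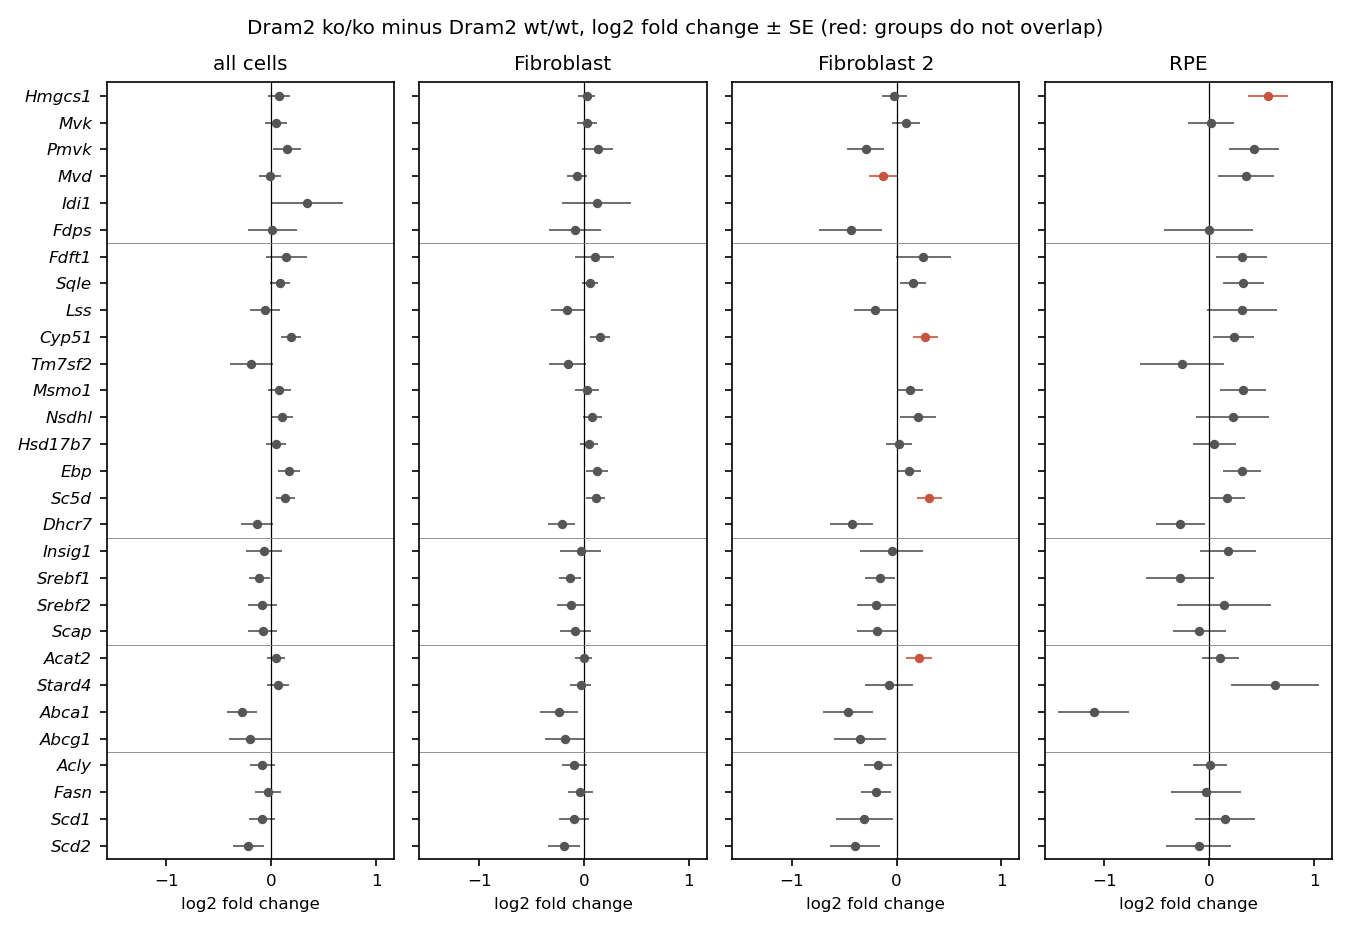
Log2 fold change of Dram2 ko/ko against Dram2 wt/wt (horizontal axis, with bars for 1 SE from voom-limma) of each member (vertical axis) over all cells and in Fibroblast, Fibroblast 2 and RPE cells. Points in red have ko/ko and wt/wt samples that do not overlap. No member passed the test in any panel, and the bars are widest in RPE cells.

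The small types gave larger values on fewer cells. In Myeloid cells only 2 samples per genotype held 10 cells or more, with 32 and 15 cells in wt/wt and 11 and 14 in ko/ko. Dram2 ko/ko replicate 2 had 176328 UMIs of all genes in these cells, so its CPM values rest on few molecules. There Scd2 had 299 and 177.5 CPM in wt/wt and 62.4 and 102 CPM in ko/ko, a log2 fold change of -1.39 (SE 0.338, voom-limma adjusted p = 0.246), in cells whose fibroblast RNA is described above. Sqle had 64.3 and 64.1 CPM and then 22.7 and 30.1 CPM, a log2 fold change of -1.09 (voom-limma adjusted p = 0.696). With 2 against 2 samples, 8 of 18 members tested lay wholly below and 1, Scap, wholly above, while 19% and 14.7% of all genes did. Without the filter on low counts Scd2 was called (adjusted p = 0.0134), likewise with the replicate number as a block (adjusted p = 0.0458), both by voom-limma. Leaving out 1 sample gave log2 fold changes of Scd2 from -1.83 to -1.02. In sub-cluster 7 (214 cells) Cyp51 had 50.6, 30.2 and 32.7 CPM in wt/wt and 78.7, 79.7 and 64.2 CPM in ko/ko, a log2 fold change of 0.87 (SE 0.243, voom-limma adjusted p = 0.189). Nsdhl, Hsd17b7 and Sc5d, all late sterol steps, also had their ko/ko samples above there, 4 of 18 members tested against 4.23% of genes, and none lay below, against 8.08%. None of these 4 passed the test by voom-limma. In Pericyte-named cells Pmvk and Mvk lay wholly above, 2 of 23 members tested against 5.04% of genes, and none below, against 5.68%. Among the other sub-clusters Pmvk lay wholly above in sub-cluster 5 (1 of 13 tested, against 476 of 6214 genes). Tm7sf2 lay wholly below in sub-cluster 2 (1 of 29, against 1214 of 18010 genes) and Scap in sub-cluster 6 (1 of 16, against 287 of 6218 genes).

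Whether the genotype difference itself varied between types was tested as an interaction with Fibroblast cells as the reference, and 0 of 29 members were called for Fibroblast 2, Fibroblast proliferating or RPE. The percent of genes called was 0%, 0.0101% and 0%, and without Dram2 wt/wt replicate 1 there were 47 genes called for Fibroblast 2. At an unadjusted p under 0.05 there were 3 members for Fibroblast 2 (Sc5d, Acat2 and Pmvk), 3 for Fibroblast proliferating (Fdps, Lss and Dhcr7) and 1 for RPE (Hmgcs1, an interaction of 0.56 on the log2 scale with SE 0.182 and a voom-limma adjusted p of 1.00). These are 10.34%, 10.34% and 3.448% of the members, against 5.132%, 3.721% and 1.86% of all genes. The Fdps value is uncertain, since 57.3% of its 3′ words occur in other genes.

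The spread between samples had an order of its own that crossed the genotypes. Over all cells the fatty acid steps summed to 334, 463 and 399.9 CPM in wt/wt and 348, 308.5 and 411.5 CPM in ko/ko, and the regulators to 71.9, 93.2 and 82.7 CPM and then 82.5, 65.4 and 81.8 CPM. Dram2 wt/wt replicate 2 was highest for all 4 regulators and all 4 fatty acid steps, and Dram2 ko/ko replicate 2 was lowest for 3 of 4 in each group. The synthesis steps were divided. Dram2 ko/ko replicate 2 was highest for 7 of the 17 and lowest for 4 (Fdft1, Lss, Tm7sf2 and Dhcr7), and it had the highest sum, 566 CPM against 488 to 536 CPM in the other samples. The same samples stood at these ends in Fibroblast cells and in Fibroblast 2 cells, where Dram2 ko/ko replicate 2 was lowest for all 4 regulators. That sample also had the most cells (6648) and the lowest median UMIs per cell (16453), and the part of either in this order was not tested.

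**Figure D5:**
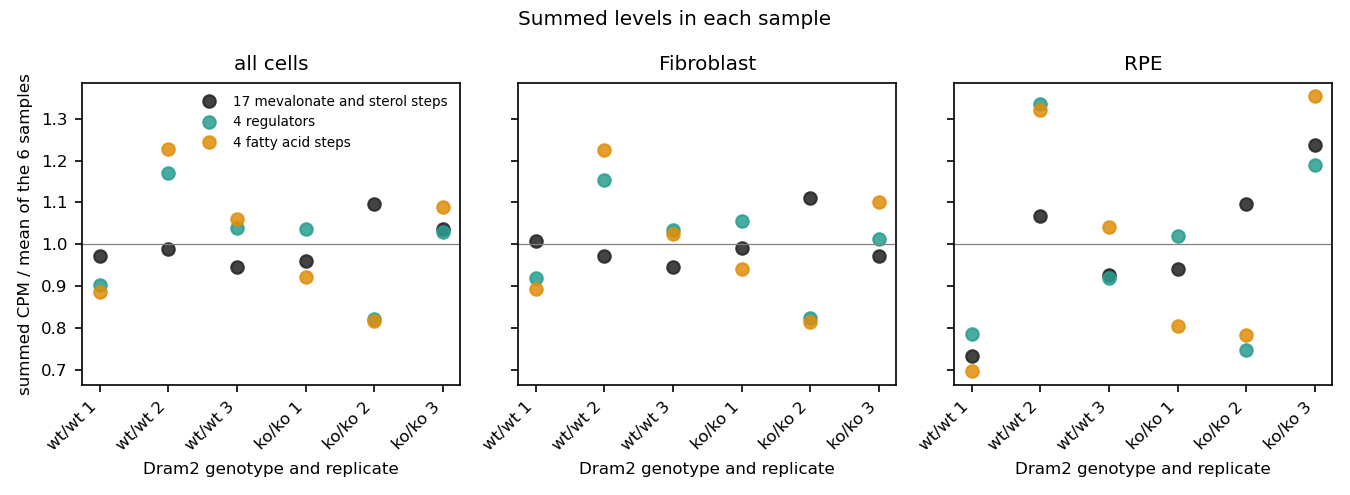
Summed CPM of the 17 mevalonate and sterol steps, the 4 regulators and the 4 fatty acid steps in each of the 6 samples, divided by the mean of the 6 samples (vertical axis), over all cells and in Fibroblast and RPE cells. Over all cells the regulators and fatty acid steps peak in Dram2 wt/wt replicate 2 and dip in Dram2 ko/ko replicate 2, where the 17 steps are at their highest.

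A further 25 genes of the same pathways, among them fatty acid elongases and desaturases, liver X receptors and sterol acyltransferase, gave 0 calls in every comparison. Over all cells 14 had a log2 fold change above and 11 below 0. Soat1, which esterifies cholesterol for storage, had 149, 149 and 169 CPM in the wt/wt and 142.5, 122 and 142 CPM in the ko/ko samples over all cells, a log2 fold change of -0.18 (voom-limma adjusted p = 0.810). It lay wholly below in Fibroblast 2 cells as well, with 109, 115 and 111 CPM and then 95.9, 81.5 and 100.4 CPM, a log2 fold change of -0.26 (voom-limma adjusted p = 0.612). Over all cells Ggps1 and Mylip lay wholly above, by 0.11 and 0.09 on the log2 scale, 2 of 25 tested against 4.2% of all genes. Soat1 was 1 of 25 wholly below there, against 7.33%. Within the types with 3 samples per genotype Ggps1 lay wholly above in Fibroblast cells, and Elovl6 in Fibroblast 2, Acss2 in Fibroblast proliferating and both Nr1h3 and Mbtps2 in RPE cells lay wholly below, each with a voom-limma adjusted p of at least 0.887. In Fibroblast cells this was 1 of 25 tested, against 4.57% of genes. Below lay 2 of 25 in Fibroblast 2 with Soat1 (6.6% of genes), 1 of 25 in Fibroblast proliferating (6.52%) and 2 of 22 in RPE cells (5.09%). In Fibroblast-like cells Fads1 and Acat1 lay above, 2 of 15 tested against 2.34% of genes, and none below, against 6.05%. In Pericyte-named cells Nr1h2 lay above and Elovl5 below, 1 each of 17 tested against 5.04% and 5.68%. In Myeloid cells, with 2 samples per genotype, Elovl6 lay above and Lpin1, Osbp, Soat1 and Nr1h2 below, 1 and 4 of 19 tested against 14.7% and 19% of genes.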

How the data were processed

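Single-cell RNA was captured with a 3′ kit from 6 cultured RPE and choroid samples. The deposited tables hold counts of UMIs per gene and cell, made by the authors with Cell Ranger 3.1.0 (submitters' processing notes) on exons of the mouse genome mm10 (GRCm38), together with the authors' cell type names and fibroblast sub-cluster numbers. These names were used as deposited, and genotype and batch matched the labels in all 25428 cells. Cell names hold no barcodes, so barcodes shared between libraries could not be counted. No doublets were called or removed here. All cells were kept, of which 469 (1.84%) had under 500 genes or over 20% mitochondrial UMIs.

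Counts were summed per sample over all cells, each cell type and each sub-cluster. Levels are CPM of these sums in every sample with at least 10 cells, and genotypes were tested where at least 2 samples per genotype had them, which left out sub-cluster 9. Differences between cell types, defined from the same cells, were not tested. The share of genes that were higher or lower in every sample was taken over genes with a mean of at least 5 CPM in both types, a limit set after the data were seen so that no gene passed through the type where it was higher alone. Genotypes were compared by voom-limma (limma 3.58.1, R 4.3.3) on these sums with TMM factors (edgeR 4.0.16), after the study's methods, two-sided, with Benjamini-Hochberg adjustment over all genes tested. The filterByExpr filter and calls at an adjusted p under 0.05 with no limit on the fold change were chosen here. Interactions used the same fit over the sums of a pair of types with the sample as a term. Alternatives were edgeR's quasi-likelihood test, DESeq2 1.42.0, other scaling factors, no filter on low counts, filters on cells, the replicate number or batch as a term, and leaving out each replicate. The tests were checked on simulated counts.

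Sequence shared at the 3′ end was measured as the percent of 31-base words in the last 400 bases of a gene's transcripts that occur in other genes. Promoters came from RefSeq (GRCm38.p6). The rule for named genes was to describe all 29 members by role, and to count 25 other pathway genes. Of these, genes that passed the filter on low counts were named where their groups did not overlap over all cells or in a cell type. The members and lists were chosen with earlier results of these data known.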

Additional observations from a re-analysis of the deposited data

How the results depend on the processing

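Members called were as reported in 292 of 295 settings. No sign changed in 278 recomputed log2 fold changes of named genes, but most had groups without overlap, where a change is unlikely. The 3 exceptions were in Myeloid cells (2 against 2 samples), where 1 member, Scd2, was called without the filter on low counts and with the replicate block, and leaving out 1 replicate gave 0 to 1. The 1 came without Dram2 wt/wt replicate 3, where the lone wt/wt sample is assumed to vary like the ko/ko samples. The replicate block gave 0 members called elsewhere. Samples with the same replicate number correlated at 0.0987, -0.429 and 0.0280 in their deviations from the group means over 22580 genes. Not every sample correlated best with its own number. Whether samples with the same number were paired is not given by the labels. These correlations cannot decide it, since the deviations of 3 samples from their own mean are not independent.

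Calls over all genes, too rare to compare with so few members, also moved. Over all cells they numbered 0 by voom-limma, 381 by DESeq2 and 118 with batch. There were 242 without ko/ko replicate 1, 117 without ko/ko replicate 3 and 1 without wt/wt replicate 2. Leaving out 1 replicate gave 0 to 234 calls in Fibroblast cells (150 without ko/ko replicate 3), 0 to 121 in Fibroblast 2 cells (0 without wt/wt replicate 1 or 3 or ko/ko replicate 2), 0 to 290 in Fibroblast proliferating cells (0 without wt/wt replicate 2 or 3 or ko/ko replicate 2), 0 to 85 in Fibroblast-like, 0 to 3 in Endothelial, 0 to 21 in Pericyte-named and 6 to 83 in Myeloid cells and 0 in RPE cells. The ranges were 0 to 248, 0 to 282, 0 to 153, 28 to 168, 0 to 71, 0 to 2 and 0 to 44 in sub-clusters 1 to 7. The highest count came without Dram2 ko/ko replicate 1 except in Myeloid cells (wt/wt replicate 3), sub-cluster 6 (ko/ko replicate 3) and sub-cluster 7 (ko/ko replicate 2). For the interactions they were 0 to 47 in Fibroblast 2 (47 without wt/wt replicate 1), 0 to 6 in Fibroblast proliferating and 0 in RPE cells.

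DESeq2 against voom-limma gave 25 and 0 calls in RPE and in Fibroblast-like, 320 and 113 in Fibroblast proliferating, 168 and 33 in Fibroblast 2, 321 and 1 in Fibroblast, 13 and 0 in Endothelial, 22 and 1 in Pericyte-named and 11 and 2 in Myeloid cells, and 302 and 61, 319 and 99, 178 and 1, 166 and 99 and 40 and 0 in sub-clusters 1 to 5. By edgeR the calls numbered 11 in Fibroblast 2, 62 in Fibroblast proliferating and 10 in Myeloid cells and 1 and 63 in sub-clusters 1 and 2, and with library size alone 8 in Fibroblast 2 cells and 1 in sub-cluster 1. Under the replicate block they numbered 0 over all cells, 2 in Fibroblast 2, 0 in Fibroblast proliferating and 32 in Myeloid cells and 2, 0, 53 and 9 in sub-clusters 1, 2, 4 and 7. With batch they numbered 87 in Fibroblast and 184 in Fibroblast proliferating cells and 110, 201, 56, 8 and 5 in sub-clusters 1, 2, 3, 5 and 7. Without the filter they numbered 71 in Fibroblast 2, 59 in Myeloid, 151 in Fibroblast, 20 in Fibroblast-like and 202 in Fibroblast proliferating cells and 162, 199, 62, 210, 18 and 86 in sub-clusters 1, 2, 3, 4, 5 and 7. Without the 5% of cells with most UMIs sub-cluster 3 had 22. The cause was not tested. Levels moved by more than 1 SD in 9 of 158 settings. The sum of the 17 steps became 268 (without mitochondrial counts) and 324 CPM (TMM) in Fibroblast-like cells, 323 CPM (TMM) in sub-cluster 5, and 767.5 (without mitochondrial counts) and 737 CPM (cell filter) in sub-cluster 6. In sub-cluster 6 Srebf1 became 77.9 and 72.0 CPM under these, and Scd2 492 CPM without mitochondrial counts. Abca1 in sub-cluster 4 became 49.3 CPM under TMM. The Fibroblast-like cells were lowest for 17 members by CPM, 13 without mitochondrial counts and 10 under TMM (highest for 0, 0 and 3), and the Pericyte-named cells highest for 19, 19 and 16. Of 20 counts of members higher or lower in every sample between a pair of types, 19 were within 1.5 times with 5 CPM asked of either type, a setting added after the data were seen, and members higher in Endothelial cells numbered 3 in place of 1. Batch and block were not run for the interactions, and leaving out the 5% of cells with most UMIs could not be fitted for Myeloid cells.

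With 3 samples per genotype an exact permutation test of a single value cannot go below p = 0.1, and members at a few CPM (Idi1, Lss, Insig1, Tm7sf2) had few UMIs in the small types. Fdft1 shares 65.7% of its 3′ words with Gm6781 and Ctsb, the latter overlapping it on the opposite strand.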

Other observations

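Among the other 25 pathway genes several also had higher levels outside the fibroblasts, and the 4 named here were chosen after their values were seen. Ch25h, which makes 25-hydroxycholesterol, averaged 66.3 ± 17.3 CPM in Endothelial cells (n = 6), 45.4 ± 28.99 CPM in Myeloid cells (n = 4) and 5.12 ± 0.422 CPM in Fibroblast cells (n = 6), with every Endothelial sample (55.2 to 100.8 CPM) above every Fibroblast sample. Mylip, a ubiquitin ligase under liver X receptor control, averaged 21.2 ± 3.06 CPM in Endothelial and 7.63 ± 0.564 CPM in Fibroblast cells, also without overlap. Npc2, a lysosomal sterol carrier, averaged 991 ± 15.3 CPM in Myeloid, 692 ± 36.3 CPM in Fibroblast and 327 ± 38.3 CPM in Endothelial cells, in that order without overlap. Nr1h3, a liver X receptor, averaged 19.6 ± 10.2 CPM in Myeloid cells with a range of 4.93 to 28.8 CPM, which met the Fibroblast range. These differences between types were not tested.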
